A study of Mus musculus with 12 samples.

Results

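The 10 genes described here encode proteins of the nuclear envelope that hold chromatin and the cytoskeleton to the lamina: the LINC complex genes Sun1, Sun2, Syne1 and Syne2, the LEM-domain genes Emd, Tmpo, Lemd2, Lemd3 and Ankle2, and Banf1. They were chosen by name, with earlier results of these data known. All 10 were found once in the count and TPM tables of both days, among 43309 features at day 5 and 42802 at day 9. RNA was measured in cultured neural progenitor cells of C57BL/6 mice, dividing cells that can form neurons and glia, in 12 libraries that form 4 groups of 3. WT cells were LaminB1+/+ and cKO cells LaminB1fl/fl. Both genotypes carried Ai3, a reporter that makes EYFP after Cre has acted, and both received the lentivirus pSox2-Cre, in which Cre is driven by a Sox2 promoter, for 5 days or for 9 days before EYFP-positive cells were sorted. Cre, the virus and the sort were therefore shared by all groups, and the floxed gene, Lmnb1, encodes lamin B1.

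SUN proteins span the inner nuclear membrane. In the space between the membranes they bind the KASH tails of nesprins, which span the outer membrane and reach actin, intermediate filaments and microtubule motors; in the developing brain this bridge is known for moving nuclei in progenitors and migrating neurons. LEM-domain proteins bind BAF, the small DNA-binding protein that Banf1 encodes, and so tether chromatin to the lamina and help the envelope close again after mitosis.

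Library totals ran from 26720476 to 32127629 counts at day 5 and from 13315273 to 24662809 at day 9. A group of 14 features taken here as structural RNA, chiefly Gm42418 and including the protein-coding gene Lars2, took 72.1% and 70.8% of the counts in cKO replicates 1 and 3 of day 9 but 0.36% in cKO replicate 2, and 15.9% to 34.9% in WT. At day 5 its share was 14.3% in cKO replicate 2 and at most 0.508% in the other 5 libraries. Outside it 3720538 to 32024799 counts remained, and the members had between 80 counts (Lemd3, cKO replicate 1 of day 9) and 12882 counts (Banf1, WT replicate 2 of day 5) in a library. Lmnb1 ran from 247 to 288 CPM over WT libraries and from 37.8 to 45.04 over cKO libraries of day 5, and from 156 to 210 and 32.8 to 39.4 CPM at day 9, with each cKO library below each WT library of its day. CPM is a count scaled to the size of its library (counts per 1e6), here with TMM factors within a day. Of the labelled cell type's markers, Nes was at 65.02 CPM or more and Sox2 at 148 CPM or more in each library. Hes1, another of them, was at 1.27 to 1.71 CPM in cKO of day 9. Markers of neurons and glia were present too. In each library Olig1 was at 603 CPM or more and the neuron markers summed to 129 CPM or more. The blood cell marker Ptprc was at 0.124 CPM at most and the endothelial marker Cdh5 at 0.0308 CPM at most. Whether the replicates are separate cultures or animals is not in the labels, and the p-values then cover the spread among these libraries alone, which may be technical.

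The members are spread over the genome (mm10, GENCODE M21). Sun1 lies on chromosome 5 from 139200637 to 139249840 (+ strand), Sun2 on 15 from 79724070 to 79742536 (- strand), Syne1 on 10 from 5020917 to 5551482 (- strand) and Syne2 on 12 from 75818134 to 76110926 (+ strand). Emd lies on X from 74254687 to 74261548 (+ strand), Tmpo on 10 from 91147571 to 91181315 (- strand), Lemd2 on 17 from 27189600 to 27204469 (- strand), Lemd3 on 10 from 120923413 to 120979332 (- strand), Ankle2 on 5 from 110231004 to 110256651 (+ strand) and Banf1 on 19 from 5364638 to 5367168 (- strand). Syne1 and Syne2 are giants: the longest annotated coding transcript has 146 exons and 27908 bases in Syne1 and 115 exons and 21704 bases in Syne2, against 3 exons and 1261 bases in Banf1. Gene-level values do not tell isoforms apart, so short nesprins and the forms of LAP2 made from Tmpo are summed. Exons of 8 members (Syne1 and Lemd3 excepted) overlap another annotated gene. Banf1 overlaps Eif1ad on the opposite strand. Since strand use is not given in the sources used here, reads in the stretch that this pair shares cannot be assigned with certainty. The same holds for Sun1, Sun2, Tmpo, Lemd2 and Ankle2, whose exons overlap noncoding genes on the opposite strand.

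Promoter sequences are shown for the 6 members that changed at day 9, so that the groups that fell and rose can be read side by side. RefSeq sequences (GRCm38.p6) were found for 9 members, not Lemd2. Each line gives the 250 bases before a RefSeq start, 5′ to 3′ on the gene's strand. Capitals mark CCAAT (the NF-Y box), TTTGAA (the CHR element of late cell cycle genes) or any of 5 E2F-like octamers, TTTCCCGC, TTTGGCGC, TTTCGCGC, TTTGGCGG and TTTCCCGG, on either strand, so that a reversed CCAAT reads ATTGG and a reversed TTTGAA reads TTCAAA. For Banf1 only 30 bases around its E2F-like match are shown, since exons of Banf1 and Eif1ad cover that window.
Lower in cKO at day 9:
Banf1, - strand, chr19:5366939-5366968: ggtcctccggaTTTCCCGCcccctcttcgt
Tmpo, - strand, chr10:91171620-91171869: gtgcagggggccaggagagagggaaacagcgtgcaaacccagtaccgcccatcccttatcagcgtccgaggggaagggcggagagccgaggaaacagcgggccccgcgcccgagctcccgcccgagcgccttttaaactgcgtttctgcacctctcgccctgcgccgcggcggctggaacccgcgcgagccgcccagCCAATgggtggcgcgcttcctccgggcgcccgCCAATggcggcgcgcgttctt
Emd, + strand, chrX:74254437-74254686: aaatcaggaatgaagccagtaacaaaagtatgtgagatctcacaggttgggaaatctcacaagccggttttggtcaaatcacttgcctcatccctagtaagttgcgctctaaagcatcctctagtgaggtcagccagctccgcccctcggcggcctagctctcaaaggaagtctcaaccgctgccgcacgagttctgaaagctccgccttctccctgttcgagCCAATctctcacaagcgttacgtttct
Sun2, - strand, chr15:79742537-79742786: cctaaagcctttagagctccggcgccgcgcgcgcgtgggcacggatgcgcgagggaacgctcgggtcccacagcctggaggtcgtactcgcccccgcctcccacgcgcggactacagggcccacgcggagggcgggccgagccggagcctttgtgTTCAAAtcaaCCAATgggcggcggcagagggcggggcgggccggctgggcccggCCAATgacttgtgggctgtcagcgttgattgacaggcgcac
Higher in cKO at day 9 (Ankle2 not with library totals or on TPM):
Syne1, - strand, chr10:5550693-5550942: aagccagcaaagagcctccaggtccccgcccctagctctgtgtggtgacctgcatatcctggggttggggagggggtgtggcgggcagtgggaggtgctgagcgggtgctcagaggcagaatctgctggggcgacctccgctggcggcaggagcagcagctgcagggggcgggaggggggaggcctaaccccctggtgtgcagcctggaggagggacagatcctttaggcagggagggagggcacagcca
Ankle2, + strand, chr5:110230754-110231003: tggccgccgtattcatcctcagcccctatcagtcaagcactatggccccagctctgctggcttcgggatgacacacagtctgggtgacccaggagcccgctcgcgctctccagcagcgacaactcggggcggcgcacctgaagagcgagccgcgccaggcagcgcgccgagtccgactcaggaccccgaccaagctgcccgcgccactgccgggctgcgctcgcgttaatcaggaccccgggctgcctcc

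The match in Banf1 was TTTCCCGC, 73 bases before the start, and the same window held 1 CCAAT. Tmpo held 2 CCAAT in the window shown, and its other RefSeq window held 1 TTTCCCGC and 1 TTTGAA. Emd held 1 CCAAT, and Sun2 held 2 CCAAT and 1 TTTGAA. Syne1 and Ankle2 held none of these letters in the windows shown. Sun1 and Lemd3, which did not pass the test, held CCAAT too. Over all 32851 RefSeq promoter windows of this length 33.85% held CCAAT, 15.99% TTTGAA and 2.91% an E2F-like octamer. Other motifs searched were GGGCGG (SP), in 32.74% of all windows, and CCGGAAG (ETS), in 6.91%; all 9 members held GGGCGG, and Lemd3 alone of them held CCGGAAG. These are matches of letters and not measured sites. In the window of Sun2, 89 bases lie in an exon of the noncoding gene Gm16576, and that of Ankle2 lies in an exon of the noncoding gene Gm43137.

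Per unit of transcript length, Banf1 was the most abundant member and the order below it was much alike in the 4 groups. The scale is TPM rescaled to a fixed sum over the features other than structural RNA, and these levels are from tables made separately for each day. In WT at day 5 Banf1 was at 777 ± 121 (mean ± SD, n = 3), Emd at 167 ± 30.6 and Tmpo at 78.3 ± 34.8, each apart from the next in every library. Lemd2, Sun2 and Sun1 formed a middle level at 34.8 ± 8.14, 33.4 ± 5.82 and 31.6 ± 1.29 and overlapped each other. Ankle2, Syne2, Syne1 and Lemd3 lay lowest, at 9.89 ± 3.89, 7.82 ± 6.10, 6.20 ± 4.47 and 3.60 ± 1.06, and neighbours in this order overlapped. In WT at day 9 the first 3 places were the same, with Banf1 at 397 ± 19.2, and Syne1 was last at 3.0 ± 0.926. In cKO at day 9 Banf1 was at 135 ± 76.03 and overlapped with Emd at 54.8 ± 32.4. Syne1, at 11.5 ± 0.312, stood 8th there and lay above Syne2 at 7.07 ± 1.69 in every library.

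Over the 4 groups, most neighbours in level did not differ beyond their spread on that scale. Banf1 fell into 3 levels: WT day 5 and cKO day 5 (706 ± 233) overlapped, WT day 9 lay below both and cKO day 9 below WT day 9, with no overlap at either step. For Emd (102 ± 7.83 in WT, 54.8 ± 32.4 in cKO) and Tmpo (74.2 ± 13.1 and 31.6 ± 18.2) the step from WT day 9 to cKO day 9 was the only one without overlap. The margin of Emd was narrow, from 92.7 in the lowest WT library to 92.2 in cKO replicate 2, with cKO replicates 1 and 3 at 36.9 and 35.3. On this scale the median of the genes tested was itself shifted in cKO at day 9, by -0.37 in log2, so these steps include that shift. For Sun1, Sun2, Syne1, Syne2, Lemd2, Lemd3 and Ankle2 each group overlapped the next in the order. The day 9 groups of Syne1 were not neighbours in that order, as both day 5 groups stood between them. They did not overlap, with 1.94 to 3.63 in WT and 11.1 to 11.7 in cKO. Day and table cannot be told apart, so no test was made between days.

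**Figure D1:**
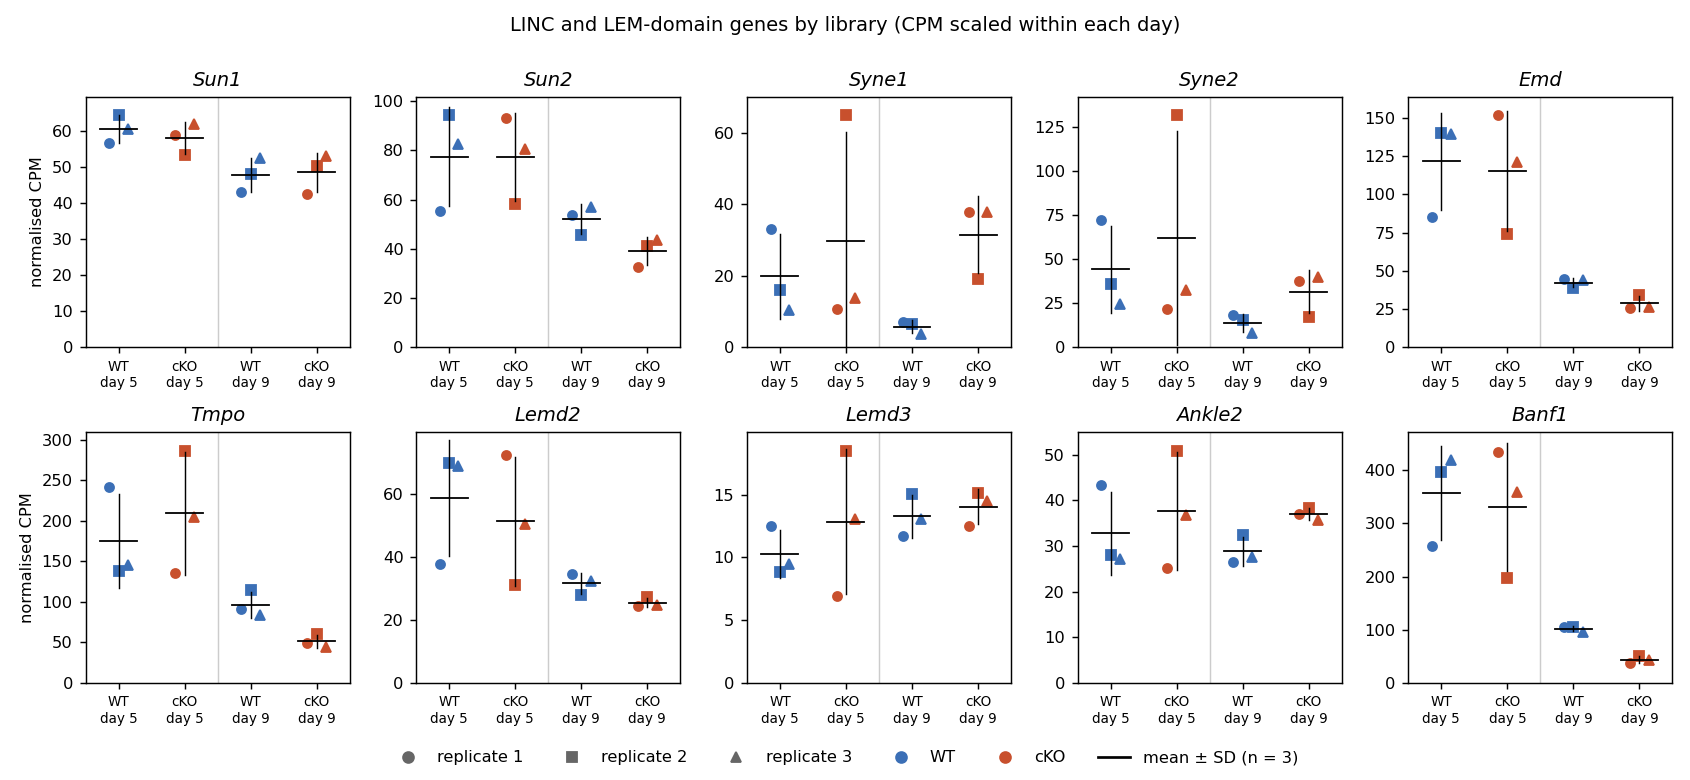
Normalised CPM of the 10 genes in each of the 12 libraries (y axis, from 0; scaled within each day), for WT and cKO at day 5 and day 9 (x axis); symbols mark the replicate, bars the mean ± SD of 3 libraries. On this scale Banf1, Tmpo, Emd, Sun2 and Lemd2 lie lower in every cKO library of day 9 and Syne1 and Ankle2 higher (Ankle2 turns on library totals and TPM), while at day 5 the groups overlap for each gene.

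The first comparison asks whether these genes differed between cKO and WT at day 5, when lamin B1 RNA was already low. None of the 10 members passed (edgeR's quasi-likelihood test with Benjamini-Hochberg adjustment over 14849 genes, adjusted p = 0.9999 for each), 0 had an unadjusted p under 0.05 and 0 were called by DESeq2 or limma-voom. Of all genes tested 0.00673% passed and 0.599% had an unadjusted p under 0.05. For each of the 10 members the WT and cKO libraries overlapped; over all genes 2.85% did not overlap, 1.5% with cKO above and 1.35% with cKO below. The median log2 fold change of the members was 0.10, against 0.01 for all genes, of which 51% had a change above 0.

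The spread among replicates was wide for most members, and the same 2 libraries stood apart. Syne1 had 33.1, 15.95 and 10.5 CPM in WT against 10.7, 64.9 and 13.9 CPM in cKO, here and below in replicate order. Syne2 had 72.05, 35.9 and 24.5 CPM in WT against 21.6, 131.5 and 32.6 CPM in cKO. WT replicate 1 and cKO replicate 2 were thus the highest of their groups for both nesprin genes. Tmpo, which encodes the LAP2 proteins, had 241, 138 and 146 CPM in WT against 136, 286 and 205 CPM in cKO, high in the same 2 libraries. Banf1 had 257, 397 and 419 CPM in WT against 435, 198 and 359 CPM in cKO, and here those 2 libraries were the lowest. Emd (WT 85.1, 140.3 and 139.7 CPM; cKO 151.7, 73.8 and 121 CPM) and Lemd2 (WT 37.7, 69.9 and 68.9 CPM; cKO 72.4, 31.2 and 50.5 CPM) were low there as well. Sun2 followed Emd, with 55.4, 94.3 and 82.7 CPM in WT against 93.3, 58.1 and 80.5 CPM in cKO. Ankle2 (WT 43.3, 28.03 and 27.1 CPM; cKO 25.2, 50.9 and 36.8 CPM) and Lemd3 (WT 12.5, 8.84 and 9.46 CPM; cKO 6.93, 18.5 and 13.1 CPM) were high where the nesprin genes were. Sun1 varied least, between 53.2 and 64.3 CPM over the 6 libraries. The SE of the log2 change was 0.77 for Syne1 (0.59 ± 0.77), 0.35 for Banf1 (-0.11 ± 0.35) and 0.20 for Sun1 (-0.06 ± 0.20).

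The share of counts on other genes with a coding transcript of at least 10 kb, 416 features at day 5, moved with these levels. It was 2.67% in WT replicate 1 and 3.55% in cKO replicate 2, and 1.45% to 1.71% in the other 4 libraries of day 5. Neuron markers moved with them too, with sums of 887 CPM in WT replicate 1 and 1003 CPM in cKO replicate 2, and 319 to 371 CPM in the other 4. Map2 alone held most of these sums, with 737 and 882 CPM in the 2 libraries. Dcx, Elavl3, Elavl4, Snap25, Syt1 and Neurod1, at lower levels, were also highest of their group in both. Among these markers Tubb3 went the other way, lowest of its group in both, at 21.2 and 16.2 CPM. Rbfox3 was lowest of its group in cKO replicate 2 only, at 1.07 CPM. The part of either shift in the members' values was not tested. Without these 2 libraries, a choice made after seeing the data, 0 members passed at day 5.

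The second comparison puts that question to day 9. There, 4 members fell in cKO (Banf1, Tmpo, Emd and Sun2) and 2 rose, Syne1 with the same sign under each scaling tried and Ankle2 with a sign that turned with library totals and on TPM, while Syne2, Lemd2, Sun1 and Lemd3 did not pass. Banf1 was lower 2.34-fold and Tmpo 1.88-fold, and Syne1 was higher 5.43-fold. Of 14617 genes tested 43.6% passed at this day, 21% higher and 22.6% lower, so 6 of 10 members is near the share among all genes. An unadjusted p under 0.05 was found for 8 of 10 members and 54.2% of all genes. The groups did not overlap for 7 of 10 members, 2 with cKO above and 5 below, against 57.8% of all genes, 27.6% above and 30.2% below. With library totals, or on TPM as deposited, 0 members passed, and on TPM rescaled without structural RNA 3 did. The median size of the members' log2 change was 0.48, against 0.52 for all genes, and the median with sign was -0.14, against 0.01, with 50.8% of all genes above 0.

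Among the SUN-domain genes, Sun2 fell and Sun1 did not pass. Sun2 had 53.8, 45.5 and 57.2 CPM in WT against 32.6, 41.2 and 43.5 CPM in cKO, each cKO library below each WT library (log2 fold change -0.41 ± 0.14, the second value being the SE, with n = 3; edgeR adjusted p = 0.0452). Sun1 had 43.0, 48.01 and 52.4 CPM in WT against 42.4, 50.2 and 52.9 CPM in cKO, overlapping throughout (0.02 ± 0.12; adjusted p = 0.899). Sun2 lay close to the threshold, and its call ended without WT replicate 1, 2 or 3 or cKO replicate 1 (edgeR adjusted p from 0.0304 to 0.133 over the 6 leave-one-out fits) and with limma-voom (0.0548).

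Among the KASH genes, Syne1, which encodes nesprin-1, rose. Syne1 had 7.06, 6.49 and 3.72 CPM in WT against 37.7, 19.2 and 37.7 CPM in cKO, and the lowest cKO library lay far above the highest WT library (log2 fold change 2.44 ± 0.36 SE; edgeR adjusted p = 0.00334). Syne2, which encodes nesprin-2, had 18.3, 15.4 and 8.32 CPM in WT against 37.4, 17.5 and 39.8 CPM in cKO (1.16 ± 0.42; adjusted p = 0.0690), with cKO replicate 2 among the WT libraries. Syne1 passed in each leave-one-out fit (adjusted p from 0.000167 to 0.0186). With cKO replicates 1 and 3 left out together its log2 fold change was 1.70, and that of Syne2 was 0.28. Without cKO replicate 2, Syne2 passed (1.45; adjusted p = 0.0207).

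The long-gene share differed between the genotypes at this day. WT had shares of 2.19%, 2.38% and 2.11% and cKO of 3.64%, 2.67% and 3.65%, highest in the cKO libraries with the most structural RNA. In cKO replicate 2, whose share was the nearest to WT, Syne1 was still above every WT library and Syne2 was not. The part of the long-gene share in the rise of Syne1 was not tested.

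**Figure D2:**
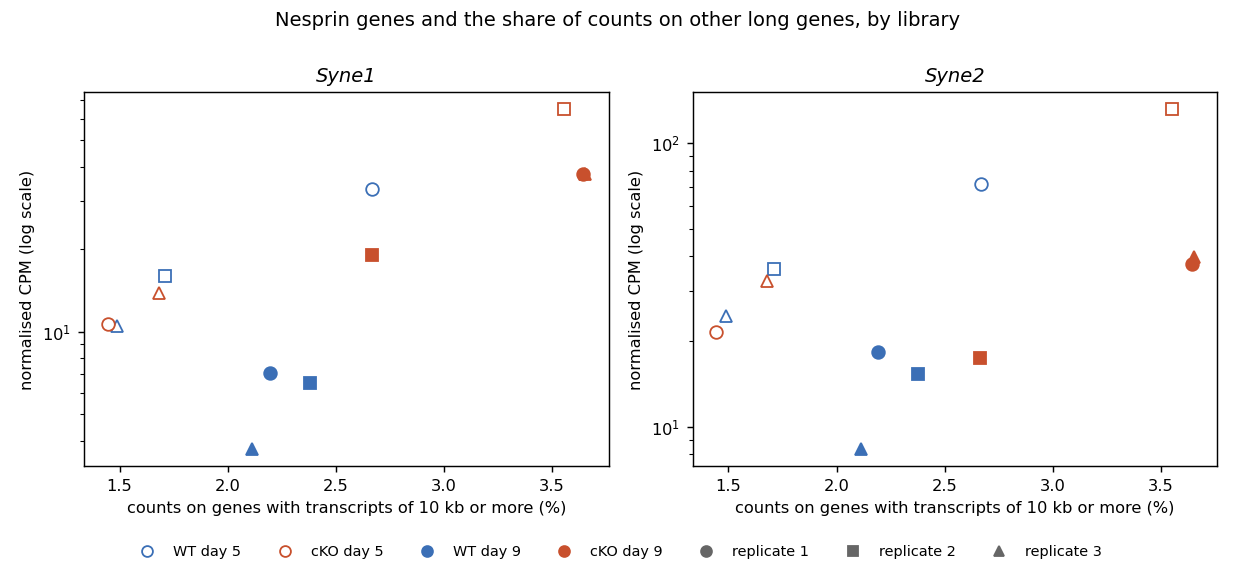
Normalised CPM (log y axis, scaled within each day) of Syne1 (left) and Syne2 (right) against the share of counts on other genes with coding transcripts of 10 kb or more (x axis, percent) in the 12 libraries; colour marks genotype, open symbols day 5, filled symbols day 9, and shape the replicate. Both genes are highest within day 5 in the 2 libraries at 2.67% and 3.55%, and at day 9 Syne1 at 19.2 CPM in cKO replicate 2 (2.67%) lies above the WT libraries while Syne2 at 17.5 CPM lies among them.

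Among the LEM-domain genes, Tmpo and Emd fell, Ankle2 rose on TMM scaling but not on library totals or TPM, and Lemd2 and Lemd3 did not pass. Tmpo had 90.95, 114.4 and 83.9 CPM in WT against 49.3, 60.02 and 44.04 CPM in cKO, without overlap (-0.91 ± 0.16; edgeR adjusted p = 0.0030). Emd, which encodes emerin, had 44.6, 38.7 and 43.7 CPM in WT against 25.7, 34.4 and 26.5 CPM in cKO, also without overlap (-0.55 ± 0.14; adjusted p = 0.0166). Ankle2, whose protein helps to dephosphorylate BAF at the end of mitosis, had 26.5, 32.3 and 27.6 CPM in WT against 37.1, 38.2 and 35.7 CPM in cKO (0.36 ± 0.12; adjusted p = 0.0374). On library totals and TPM the sign of Ankle2 turned. In the fits on those scales the median of all genes shifted too, by -0.51 with library totals and -0.87 on log2(TPM + 1). Ankle2, at -0.15 and -0.59, stood 0.358 and 0.289 above the shift. On TPM rescaled without structural RNA Ankle2 was at -0.077 with a shift of -0.37. On log2(TPM + 1) with no filter on low values it lay below the median of all features, by -0.44. That median includes features near 0, which can hardly move on this scale. It is therefore not comparable with the other shifts, and the place of Ankle2 below it shows no relative fall. Lemd2, which recruits the envelope sealing machinery, had 34.6, 27.9 and 32.4 CPM in WT against 24.5, 27.3 and 24.8 CPM in cKO (-0.31 ± 0.13; adjusted p = 0.0763), and Lemd3, which encodes MAN1, an inhibitor of SMAD signalling, had 11.7, 15.1 and 13.1 CPM against 12.5, 15.1 and 14.5 (0.09 ± 0.15; adjusted p = 0.644). The call of Emd ended without WT replicate 1 or cKO replicate 1 or 3 (adjusted p from 0.00128 to 0.0598 over the leave-one-out fits), and that of Ankle2 without any 1 library except WT replicate 2 (0.0360 to 0.138).

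Banf1 had the smallest p of the 10 members and fell in every cKO library. It had 105.5, 104.6 and 95.7 CPM in WT against 36.95, 50.04 and 43.2 CPM in cKO (-1.23 ± 0.13; edgeR adjusted p = 0.00023). Its highest cKO library was far below its lowest WT library, and it passed in each leave-one-out fit (adjusted p at most 0.0036). The overlapping gene Eif1ad had 38.9, 41.2 and 45.2 CPM in WT against 28.7, 31.4 and 26.3 CPM in cKO.

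**Figure D3:**
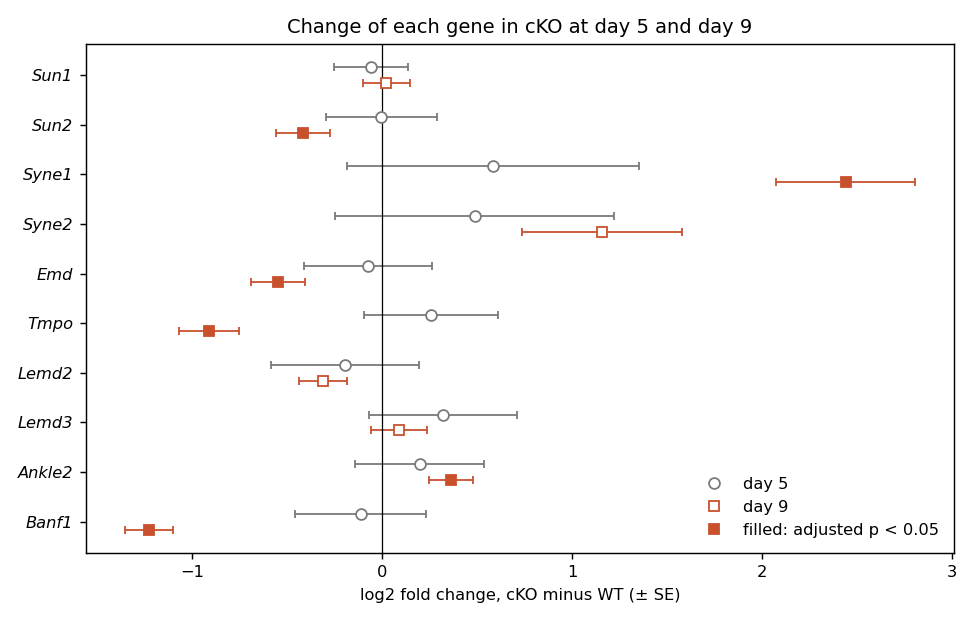
Log2 fold change of cKO against WT (x axis, ± SE) of each of the 10 genes at day 5 (grey circles) and day 9 (red squares), n = 3 libraries per group; filled symbols have an edgeR adjusted p under 0.05. None is filled at day 5, and at day 9 the filled ones run from -1.23 for Banf1 to 2.44 for Syne1.

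Markers of the cell cycle and of other cell types moved at day 9 together with these genes, and their part in the members' changes was not tested. Of all genes tested at that day 21% passed higher and 22.6% lower. Of 24 G2 and M phase genes, 18 fell and 0 rose, with a summed level of 847 to 1064 CPM over WT libraries and 123 to 161 over cKO libraries. Plk1, a mitotic kinase, fell by 3.89 and Cenpa, a centromere histone, by 4.02 on the log2 scale. Of 20 S phase genes 17 fell (934 to 1226 against 239 to 288 CPM), among them Uhrf1 (-3.21 ± 0.17) and Mcm2 (-2.28 ± 0.13). At day 5, 0 of these 44 genes passed, with sums of 2929 to 3969 and 3042 to 4036 CPM for G2 and M phase and of 3315 to 3786 and 3278 to 3917 CPM for S phase.

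The same shares of all genes, 21% higher and 22.6% lower, stand beside the counts of cell type markers. Of 10 progenitor markers 6 fell and 2 rose at day 9 (2910 to 3333 against 1466 to 1624 CPM). Hes1 (-2.99 ± 0.22) and Nes (-1.97 ± 0.16) were among the falls, and the rises were those of Pax6 (0.67 ± 0.13) and Prom1 (0.998 ± 0.335). Among oligodendrocyte lineage markers, 13 tested, 9 rose and 4 fell (2856 to 3252 CPM and 4020 to 4886 CPM), Enpp6 and Myrf among the rises (8.03 ± 0.29 and 3.74 ± 0.14). The 4 falls were those of Olig1 (-1.28 ± 0.12), Olig2 (-0.55 ± 0.11), Pdgfra (-0.70 ± 0.10) and Cspg4 (-1.62 ± 0.13), genes of oligodendrocyte precursors. Gpr17 went from 356 to 2021 CPM, a larger rise than that of the mean sum, from 3014 to 4451 CPM. The other markers of this list together thus did not rise in summed level. Of 10 astrocyte markers 7 rose and 1 fell (2148 to 2459 CPM and 3333 to 4001 CPM), with Gfap (4.37 ± 0.17) and Gja1 (2.89 ± 0.16) among the rises. Of 9 tested neuron markers 6 rose (129 to 295.5 CPM and 524 to 588 CPM), Elavl3 and Tubb3 among them (1.75 ± 0.15 and 1.13 ± 0.15). Of 5 tested ependymal markers all 5 fell (17.2 to 17.8 CPM and 8.26 to 10.8 CPM), among them Cfap43 (-1.19 ± 0.22) and Dynlrb2 (-3.02 ± 0.70). Microglia markers summed to 0.287 to 0.407 CPM in WT and 0.654 to 2.11 CPM in cKO, and 0 of 8 passed the filter on low counts, so none was tested. Endothelial and mural or fibroblast markers summed to 3.94 and 3.38 CPM at most in a library of day 9, with 1 rise and 1 fall in each list. The signs were also checked with library totals and on TPM as deposited, here as plain differences of group means of log2(value + 1) and not as fits. By that measure the median of the genes tested moved by -0.65 and -0.79. On both scales the rises of Pax6 and Aldoc turned in sign, and on TPM that of S100b. Relative to that median these 3 stayed above 0, and on TPM the falls of Flt1, Acta2 and Ccno, markers of endothelial, mural and ependymal cells, turned. WT means of Flt1, Acta2 and Ccno were only 1.34, 0.835 and 0.591 CPM. At such low values the added 1 limits how far a gene can fall, so these turns show no relative rise. In bulk RNA, fewer cells of a type and less RNA per cell cannot be told apart.

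Ratios inside a library do not depend on the scaling of that library, and 5 of them, chosen after values were seen, were compared on TPM. At day 9 Syne1 to Syne2 was 0.719, 0.542 and 0.695 for WT and 1.958, 1.77 and 1.31 for cKO, higher in every cKO library than in any WT library. Sun1 to Sun2 was 0.838, 1.35 and 1.18 for WT and 2.07, 1.55 and 1.78 for cKO. Banf1 to Emd was 3.84, 4.45 and 3.51 for WT and 2.22, 2.41 and 2.88 for cKO. Lemd2 to Lemd3 was 5.32, 3.41 and 4.43 for WT and 3.37, 3.32 and 2.95 for cKO, apart by a narrow margin. With counts in place of TPM the genotypes overlapped in Lemd2 to Lemd3. Banf1 to Tmpo overlapped, with 5.87, 4.63 and 5.81 against 3.79, 4.22 and 4.95. The log2 differences at day 9 were 1.35, 0.70, -0.65, -0.43 and -0.33 in the order given. None passed: the exact two-sided permutation p was 0.2 for Banf1 to Tmpo and 0.1 for the others, the smallest that 3 against 3 allows, and 0.4 and 0.25 after Benjamini-Hochberg adjustment over the 10 comparisons. At day 5 the genotypes overlapped in all 5 ratios, with Syne1 to Syne2 between 0.767 and 0.926 in WT and between 0.82 and 1.01 in cKO. The 2 libraries of day 5 with high nesprin levels, WT replicate 1 and cKO replicate 2, had Syne1 to Syne2 ratios of 0.767 and 1.01, whereas their Sun1 to Sun2 ratios, 1.22 and 1.30, were the highest of that day.

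**Figure D4:**
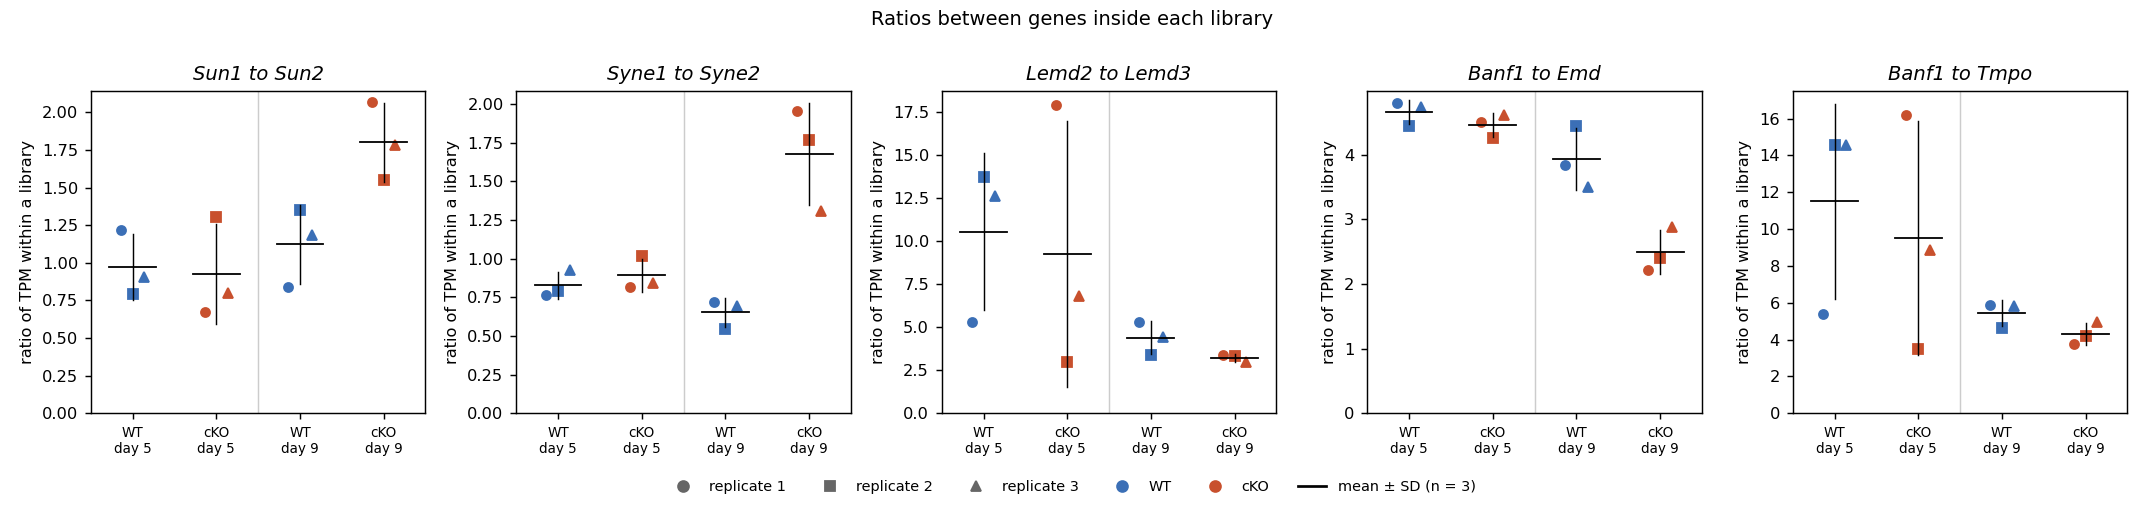
Ratio of TPM between 2 genes within each library (y axis, from 0) for Sun1 to Sun2, Syne1 to Syne2, Lemd2 to Lemd3, Banf1 to Emd and Banf1 to Tmpo, in WT and cKO at day 5 and day 9 (x axis); symbols mark the replicate and bars the mean ± SD of 3 libraries. The genotypes overlap at day 5 in each ratio and at day 9 in Banf1 to Tmpo, while Syne1 to Syne2 at day 9 lies between 0.542 and 0.719 in WT and between 1.31 and 1.958 in cKO.

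The third comparison asks whether the effect of genotype differed between the days, subtracting the day 5 change from the day 9 change in 1 fit of the 12 libraries. None of the 10 members passed (edgeR, Benjamini-Hochberg over 15323 genes; lowest adjusted p = 0.124), where 7.71% of all genes did, 2.57% with the day 9 change above the day 5 change and 5.14% with it below. An unadjusted p under 0.05 was found for 2 members, Banf1 (-1.12 ± 0.38) and Tmpo (-1.17 ± 0.42), against 18.8% of all genes, and limma-voom called 0 and DESeq2 called 1, Tmpo. For Syne1 the difference was 1.85 ± 0.95 (adjusted p = 0.335). Passing at day 9 and not at day 5 is therefore not shown to be a difference between the days for any member in this fit. Without WT replicate 1 and cKO replicate 2 of day 5, left out together after seeing the data, 3 members passed: Syne1 (2.54; edgeR adjusted p = 0.00706), Tmpo (-1.17; adjusted p = 0.0157) and Banf1 (-1.19; adjusted p = 0.00392). Leaving out 1 of these libraries was enough for Tmpo (without WT replicate 1, adjusted p = 0.0437) and for Syne1 and Banf1 (without cKO replicate 2, 0.0123 and 0.0116). Over all genes, too, more passed without the 2 libraries and without cKO replicate 2 than in the full fit. The 7.71% above is therefore not the share to set beside these calls, and the closing section gives the counts.

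Other envelope genes were counted from 6 lists at day 9, where 43.6% of all genes passed, 21% higher and 22.6% lower. Of 9 other SUN, KASH and LEM genes 3 passed the filter on low counts and 1 of these fell: Ankle1, a LEM-domain endonuclease, from 6.21 ± 0.588 to 1.14 ± 0.340 CPM (mean ± SD, n = 3; log2 fold change -2.56 ± 0.29; edgeR adjusted p = 0.000353). Of the lamins and the lamin B receptor 3 of 4 fell: the targeted Lmnb1 (-2.38 ± 0.14), Lbr (-0.81 ± 0.21) and Lmnb2 (-0.40 ± 0.11), but Lmna did not pass, with means of 10.3 ± 1.40 and 10.9 ± 1.72 CPM. Of 14 torsins and other inner envelope proteins 8 fell and 0 rose. They included Nrm, which encodes nurim (-1.12 ± 0.15), Tmem194, also named Nemp1 (-1.62 ± 0.25), Tmem43, which binds emerin (-0.56 ± 0.10), and Tor2a (-0.67 ± 0.14).

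Against the same shares of all genes, of 15 BAF kinases, phosphatases and envelope sealing factors 7 fell and 1 rose. Vrk1, the kinase that releases BAF from DNA in mitosis, fell from 22.7 ± 2.54 to 10.6 ± 0.608 CPM, and Vrk3 (-0.95 ± 0.16), the phosphatase gene Ppp4c (-0.68 ± 0.14) and the ESCRT-III gene Chmp4b (-0.51 ± 0.10) fell as well. Of 12 motor and cytoskeletal partners of nesprins 3 rose and 2 fell, a share near that of all genes. Plec, whose product plectin links nesprin-3 to intermediate filaments, rose (1.80 ± 0.22), as did Pafah1b1, which encodes the dynein regulator LIS1 (0.93 ± 0.19), and the kinesin-1 gene Kif5b (2.45 ± 0.50), and the dynein regulator gene Nde1 fell (-1.14 ± 0.15). Of 12 partners of emerin, LAP2 and MAN1 4 fell and 3 rose. Ctnnb1, which encodes beta-catenin (-0.69 ± 0.12), and the deacetylase gene Hdac3 (-0.39 ± 0.09) fell, and the corepressor gene Ncor1 (1.21 ± 0.23) and Rb1, the retinoblastoma gene (1.59 ± 0.40), rose. With library totals and on TPM as deposited the median of the genes tested moved by -0.65 and -0.79 on the log2(value + 1) scale, and the rises of Pafah1b1 (TPM) and of Spast, a microtubule-severing gene of envelope sealing (0.57; both scales), turned in sign; relative to that median 0 rises and 0 falls of these lists turned. The medians of these 6 lists were -0.16, -0.60, -0.41, -0.30, 0.12 and 0.00 in the order given, against 0.01 for all genes. At day 5, 1 of the 63 tested genes of these lists passed, Lmnb1.

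The genes most like a member over the 12 libraries, after the mean of each day was taken out, were found among 9119 others by Pearson's r of log2 CPM, as a description; libraries share genotype, depth and composition. For Banf1 they were Nfyc (0.994), Pih1d1 (0.994) and Rnaseh2c (0.993), and for Tmpo Rad21, a cohesin subunit gene (0.987), Klf3 (0.982) and Prps2 (0.979). For Syne1 they were Utp14b (0.994), Lyst (0.992) and Slc7a11 (0.989), and for Ankle2 Dip2c (0.988), Gapvd1 (0.988) and Phlpp2 (0.987). Among the members, Syne1 and Syne2 had an r of 0.93 and Emd and Lemd2 also 0.93, and Syne1 ran opposite to Banf1 (-0.96).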

How the data were processed

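Polyadenylated RNA of 12 libraries was quantified by the authors with RSEM and Bowtie2 on mm10, per the submitters' processing notes; the sources used here name no annotation, trimming or strand setting. The tables the authors deposited hold RSEM's expected counts per gene and TPM per gene, made separately for each day. Day 5 features were Ensembl identifiers (42425 of 43309 paired with a symbol) and day 9 features symbols (41839 of 42802 known). After rounding, counts were fitted with edgeR 4.0.16 under R 4.3.3 (filterByExpr, TMM, robust glmQLFit and glmQLFTest, Benjamini-Hochberg, threshold 0.05), each day alone, and the day difference on the symbols found once in both tables. SE is the log2 change over the square root of F. Alternatives used DESeq2 1.42.0, limma 3.58.1 on voom values and on log2(TPM + 1) or log2(TPM + 0.1), other scalings and filters, and fewer libraries. The code was tested on simulated data.

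All 10 members are named; related lists give up to 4 genes that passed at day 9 by adjusted p, marker lists up to 2, and likeness lists 3 genes for the 2 largest rises and 2 largest falls. The members and lists were chosen with earlier results of these data known. Motifs, the long-gene share, the neuron marker sums of day 5, the ratios and the sign check of the lists were chosen after values were seen. Spast, Pax6, Prom1, Aldoc, S100b, Flt1, Acta2, Ccno, Olig1, Olig2, Pdgfra, Cspg4, Gpr17 and Lmna are named outside the rule, after their values were seen. The same holds for the neuron markers Map2, Dcx, Elavl4, Snap25, Syt1, Neurod1 and Rbfox3.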

Additional observations from a re-analysis of the deposited data

Results flagged for a closer look

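For 4 of 19 related genes the effect of genotype differed between the days in the fit of all 12 libraries, where 7.71% of all genes passed. The effect is the day 9 change less that of day 5 (edgeR's quasi-likelihood test, Benjamini-Hochberg). These 19 are the related genes that are named with values and were in that fit. Most were chosen for a small p at day 9, and the day 9 libraries enter this fit, so the count is no independent result. Ankle1 gave -2.79 ± 0.32 (adjusted p = 0.000352), Vrk1 -1.21 ± 0.29 (0.0253), Nde1 -1.12 ± 0.23 (0.0108) and Plec 1.86 ± 0.37 (0.0107). The other 15 did not pass.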

How the results depend on the processing

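At day 5 the number of members called stayed at 0 in each alternative. At day 9 it was 6, and it moved by more than 1.5 times to 0 with library totals, on log2(TPM + 1), on log2(TPM + 0.1) and on log2(TPM + 1) with no filter, to 3 on TPM rescaled without structural RNA, to 2 with all 12 libraries in 1 fit and to 3 with cKO replicates 1 and 3 left out together. Leaving out 1 library gave 3 to 7. Same-numbered WT and cKO libraries had correlations of deviations of -0.72, -0.5 and 0.53 at day 5 and 0, -0.2 and -0.06 at day 9, so they share only a number, and not every library correlated best with its own number. With the replicate number as a block 4 were called, and Sun2 and Ankle2 were lost (edgeR adjusted p = 0.0592 and 0.0624). The cause was not tested. Ankle2 turned to -0.15 with library totals, to -0.59, -0.70 and -0.59 on the 3 TPM scales in the order above, and to -0.077 on rescaled TPM. For the day difference 0 were called, 1 with DESeq2, 0 to 2 without 1 library, and 3 without WT replicate 1 and cKO replicate 2 of day 5. With the block the day difference gave 0. Genes called over all genes were 6378 at day 9, but 672 with library totals, 515 to 48 on unrescaled TPM, 2858 on rescaled TPM, 2489 with all 12 libraries in 1 fit and 3344 without cKO replicates 1 and 3, and 4063 to 7507 without 1 library; at day 5 1, but 0 with the block, with library totals, without a filter and without any 1 library, 9 with DESeq2, 2 with limma-voom and 19 without the 2 libraries; for the day difference 1181, but 385 with library totals, 322 with the block, 2410 without cKO replicate 2 of day 5, 756 without WT replicate 2 of day 9, 452 without cKO replicates 1 and 3 of day 9 and 2535 without the 2 libraries. Of the 190 member values under alternatives at day 9, 135 kept their side of the threshold, 46 lost the call and 4 gained it. The remaining 5, all of Ankle2, turned in sign. Members that were not called could change sign and still be counted as kept. Sun1 ran from -0.86 to 0.10 and Lemd3 from -0.92 to 0.19. Banf1, Tmpo and Syne1 kept their sign in 19 of 19 each; Banf1 ran from -2.32 to -1.06, Tmpo from -1.97 to -0.72 and Syne1 from 1.07 to 2.69. The 5 ratios at day 9 kept their sign in 7 of 7 each.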
